A study of Mus musculus with 18 samples.

Results

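The arrays described here are the 6 that were made from cultures expressing OKSM alone, out of 18 arrays in all. They were grouped by the day in their labels into late cultures (days 8, 10 and 12) and early cultures (days 2, 4 and 6), 3 arrays against 3. The cells were bulk reprogrammable mouse embryonic fibroblasts (Rep-MEFs) of strain Black6-129X1/SvJ that expressed the reprogramming factors OKSM (Oct4, Klf4, Sox2 and Myc), and received no AGi. Media differed by cell type, and which array had which is not given in the labels. A parallel set of 6 arrays from the same days held Rep-MEFs with OKSM and AGi, which is ascorbic acid plus a GSK3 inhibitor (GSK3i). It is used here only to show where the cultures without AGi differed. Single arrays of Rep-MEFs without dox, wild-type embryonic stem cells (ESCs), granulocyte-macrophage progenitors (GMPs) and refractory Thy1+ cells sorted from OKSM cultures on day 3 give reference levels.

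Each day had 1 array, so the days of a period serve as its replicates and every p-value measures the spread between days, which nothing shows to be separate cultures. The day cannot be told apart from any batch in which arrays were handled, or from any difference between cell preparations. Each day had 1 array, and no record of scans, handling or preparations was used here. Levels are given on the log2 scale of the deposited RMA table, with array medians between 6.32 and 6.46, and having 6 arrays limits the precision. As a check of the fibroblast label, Col1a1, which makes the main chain of type I collagen, was read. It was at 11.78, 11.74 and 11.63 on days 8, 10 and 12 and 11.75, 11.18 and 11.20 on days 2, 4 and 6. Rep-MEFs without dox were at 12.60, fibroblast-derived induced pluripotent stem cells at 10.70, ESCs at 9.52 and GMPs at 7.02. Col1a1 therefore set these cultures apart from GMPs, and less clearly from pluripotent cells.

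During reprogramming, OKSM is known first to silence the fibroblast programme, then to move cells towards an epithelial state, and only later to switch on the pluripotency network in a small part of the culture. Cells that do not progress can keep mesenchymal features and stay in the dish beside those that do. In bulk RNA, fewer cells of a type and less RNA per cell cannot be told apart.

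Between days 6 and 8 the cultures with OKSM alone changed more than between any other neighbouring days by the number of genes and the spread of their differences, and mostly upwards. On day 8, 403 genes lay at least 1 log2 above day 6 and 69 at least 1 log2 below it, 2.91% and 0.498% of the 13865 genes tested. The counts from day 2 to day 4 were 131 higher and 126 lower, so that more genes were lower at that step than on day 8. From day 4 to day 6 they were 21 and 6, from day 8 to day 10 they were 6 and 11, and from day 10 to day 12 they were 45 and 4. The standard deviation of the gene differences was 0.332 from day 2 to day 4, 0.204 from day 4 to day 6, 0.425 from day 6 to day 8, 0.197 from day 8 to day 10 and 0.222 from day 10 to day 12. With 1 array a day, these counts have no replicate check. At a size of 2 log2, 83 genes were higher and 13 lower on day 8 than on day 6, against at most 9 higher and 12 lower across any other neighbouring days. Across genes, arrays of the same period correlated at 0.973 to 0.992, and arrays of different periods at 0.942 to 0.964, a description in which genes are not independent.

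**Figure D1:**
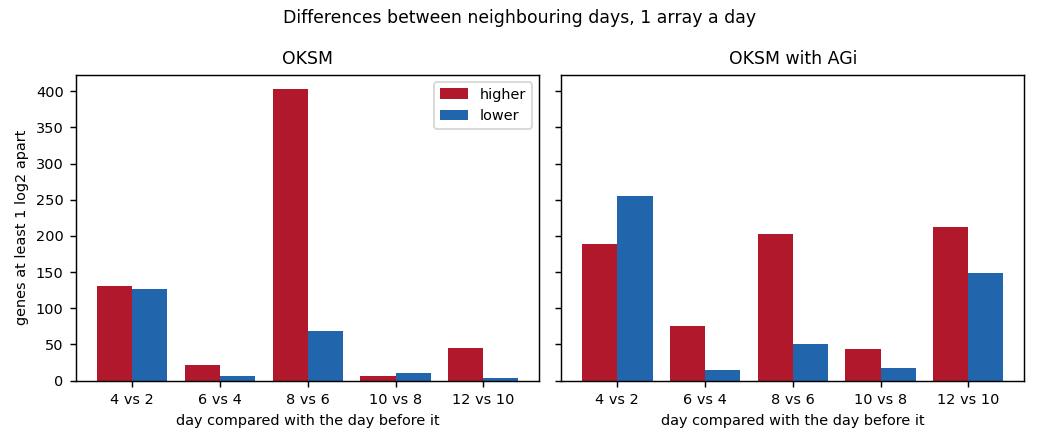
Number of the 13865 tested genes that lay at least 1 log2 above (red) or below (blue) the day sampled before it, for each pair of neighbouring days, in cultures with OKSM alone (left) and with OKSM and AGi (right), 1 array a day. Without AGi the bar of higher genes on day 8 (403) is the tallest, while the 69 lower genes are fewer than the 126 on day 4. With AGi day 8 does not stand apart, with 203 higher and 50 lower on day 8, against 189 and 255 on day 4 and 212 and 149 on day 12.

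Penk, which encodes the precursor of the enkephalin opioid peptides, had the highest late minus early difference. It read 12.62, 12.75 and 12.85 on days 8, 10 and 12, against 7.45, 7.32 and 7.54 on days 2, 4 and 6. Within each period its arrays differed by less than 0.3 log2. The periods did not overlap, which was a condition for genes named by size. Penk was higher late by 5.30 ± 0.10 (limma SE, 39.4-fold, adjusted p = 1.07e-06), and 5.08 of this lay between days 6 and 8. It was at 7.29 in Rep-MEFs without dox and at 10.06 in the Thy1+ cells of day 3.

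Limma with Benjamini-Hochberg adjustment at a threshold of 0.05 called 1441 genes higher late (10.4% of those tested) and 850 lower (6.13%). By at least 1 log2, 385 genes were higher (2.78%) and 57 lower (0.411%). When the arrays were quantile normalized again, the counts were 1182 higher and 1148 lower, so that 50.7% of the called genes were higher, against 62.9% with the values as deposited. The median difference over all tested genes was −0.01 as deposited and −0.05 after that normalization. Without the day 10 array 540 genes were higher and 202 lower. Without day 4 these were 595 and 215, without day 12 they were 745 and 280, and without day 8 they were 938 and 369. The 23 background probe sets that target no gene read higher late by 0.02 to 0.27, and the 18 hybridisation controls, which come from no cell, differed by −0.25 to 0.11. The 24 poly-A controls, which come from no cell either, differed by −0.24 to 0.55. Their part in the calls was not tested.

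Of the 1441 genes called higher, 1242 (86.2%) had their largest neighbouring-day difference between days 6 and 8, as had 690 (81.2%) of the 850 called lower and 45.1% of all tested genes. For these calls the contrast itself favours a difference at that place, so the shares are a description. A stricter fit asked whether the periods differed by more than a straight line over days gives. It called 57 genes higher (0.411%) and 11 lower (0.0793%), among them 56 of the 1441 and 9 of the 850, with 1907 genes at an unadjusted p under 0.05. Its period term is the offset between parallel lines through the early and the late days. This term was 5.06 for Penk (adjusted p = 0.00071), 2.13 for Nxpe2 (adjusted p = 0.026), 3.61 for Cxcl15 (adjusted p = 0.040) and 2.68 for Hoxd13 (adjusted p = 0.040). The count of this fit rested on single days: without day 6 or without day 10 it was 1 higher and 1 lower, both times Penk and the probe set of Kcnma1 described below. Without day 2 it was 297 and 47, and without day 4 it was 9 and 3. Without day 8 it was 7 and 1, and without day 12 it was 32 and 13.

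**Figure D2:**
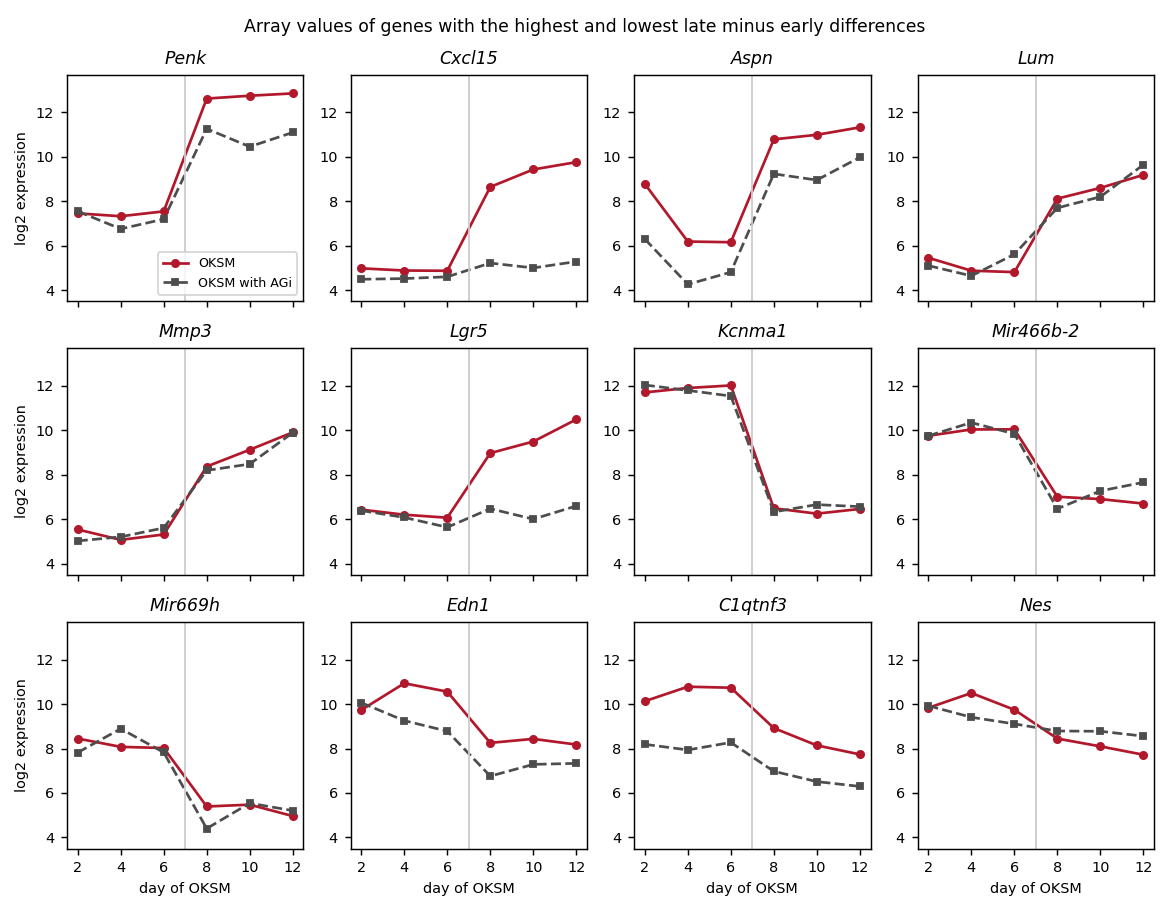
Array values (log2) by day of OKSM for 12 of the genes with the highest and lowest late minus early differences, in cultures with OKSM alone (red circles, solid) and with OKSM and AGi (grey squares, dashed), 1 array a point; the grey line separates early from late days. Penk, Aspn, Lum and Mmp3 step up after day 6 in both arms, Cxcl15 and Lgr5 read above 8 on late days only without AGi, and the value shown for Kcnma1 is that of 1 of its 2 probe sets, the other of which stays at 5.60 to 6.46 on all 18 arrays.

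Of 10 tested small leucine-rich proteoglycans, which bind collagen fibrils and tune their assembly, 8 rose and none fell, with a list median difference of 2.30 against −0.01 over all tested genes. Of all tested genes 10.4% rose and 6.13% fell. Leaving out each array in turn gave 6 to 8 proteoglycan genes that rose. Lum, encoding lumican, read 8.11, 8.60 and 9.18 on days 8, 10 and 12, against 5.45, 4.87 and 4.81 on days 2, 4 and 6 (3.59 ± 0.28, adjusted p = 0.00063). Lum was at 4.83 in Rep-MEFs without dox, so its late level lay above that of the starting fibroblasts.

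Aspn, encoding asporin, which binds TGF-beta, read 10.78, 10.99 and 11.32 late, against 8.78, 6.18 and 6.15 early (3.99 ± 0.66, adjusted p = 0.0097). Day 2 was the highest early array of Aspn, and it lay below Rep-MEFs without dox (10.37) and below every late array; the Thy1+ cells of day 3 were at 7.95. Omd (2.84), Ecm2 (2.69), Ogn (2.63), Podn (1.97), Dcn (1.30) and Bgn (0.32) were the other members called higher. The list's mean over its 12 measured members was 9.34 to 9.86 on late days and 7.78 to 8.15 on early days, with no overlap.

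Matrix proteases and their inhibitors rose in 12 of 23 tested members and fell in 1, against 10.4% and 6.13% of all tested genes. When single arrays were left out, 7 to 15 were higher. Mmp3, encoding stromelysin, which cleaves many matrix proteins and activates other proteases, read 8.38, 9.13 and 9.91 late, against 5.54, 5.07 and 5.32 early (3.83 ± 0.35, adjusted p = 0.0012). Mmp13, encoding a collagenase, read 8.83, 9.32 and 9.78 late, against 5.90, 6.15 and 5.74 early (3.38 ± 0.23, adjusted p = 0.00043). Both were lowest on day 8 among the late arrays and highest on day 12. Mmp9, a gelatinase, differed by 2.23 and Mmp19 by 2.02. Mmp2, the other gelatinase, was abundant in both periods, with means of 12.60 late and 11.68 early. The member that fell was Mmp11 (−0.33, adjusted p = 0.047), a call that was lost without any of days 2, 4, 8, 10 or 12.

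Mmp3 and Mmp13 lie in 1 cluster of metalloproteinase genes on chromosome 9. Mmp10, in the same cluster, averaged 6.07 late and 6.26 early and was not called, and was picked for mention after its values were seen. The promoters of Mmp3 and Mmp13 are shown because these members of the cluster rose together and each holds the letters TGANTCA, the site that AP-1 factors (Fos and Jun dimers) are known to bind, which read the same on both strands. The sequences are RefSeq's for GRCm38.p6, at chr9:7445572-7445871 and chr9:7272264-7272563 on the plus strand, 250 bases before to 50 after the start of the gene, with the match in capitals.
Mmp3: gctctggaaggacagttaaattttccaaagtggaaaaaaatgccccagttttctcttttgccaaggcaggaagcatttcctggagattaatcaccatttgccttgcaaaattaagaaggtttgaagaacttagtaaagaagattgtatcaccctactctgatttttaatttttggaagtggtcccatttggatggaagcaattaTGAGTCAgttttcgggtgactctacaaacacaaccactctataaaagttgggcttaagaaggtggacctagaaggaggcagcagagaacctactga
Mmp13: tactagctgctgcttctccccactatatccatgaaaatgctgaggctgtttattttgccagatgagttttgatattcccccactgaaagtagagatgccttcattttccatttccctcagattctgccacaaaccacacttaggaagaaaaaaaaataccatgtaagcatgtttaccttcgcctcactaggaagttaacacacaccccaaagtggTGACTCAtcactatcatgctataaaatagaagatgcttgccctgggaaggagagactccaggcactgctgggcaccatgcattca
The match begins 46 bases before the start of Mmp3 and 35 bases before that of Mmp13. It was found in 7.81% of all 32851 promoters. The other counts are of genes with a promoter, where a match in any promoter of the gene counts. It was found in 82 of 1094 genes called higher (7.50%), in 46 of 623 called lower (7.38%) and in 684 of 10828 tested (6.32%). Among genes higher by at least 1 log2 it was found in 30 of 257 (11.7%). A match is a description of these letters and not a site in use. Of 23 tested AP-1 and immediate early genes, 1 was called higher (Nr4a2, 0.54, adjusted p = 0.048) and none lower. Of all tested genes 10.4% were called higher and 6.13% lower. The Nr4a2 call was lost when any single array was left out.

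Fibroblast identity genes rose in 13 of 28 tested members and fell in none, against 10.4% and 6.13% of all tested genes. When single arrays were left out, 6 to 17 were higher. The list's mean was 10.39 to 10.50 on late days and 9.58 to 9.96 on early days, against 10.29 in Rep-MEFs without dox. Pdgfra, a growth factor receptor of mesenchymal cells, read 8.48, 9.34 and 9.55 late, against 7.24, 6.08 and 6.15 early (2.63 ± 0.38, adjusted p = 0.0060). Thy1, the surface marker that reprogramming cells lose, read 11.43, 11.53 and 11.17 late, against 10.83, 10.36 and 10.45 early (0.83 ± 0.15, adjusted p = 0.013), a call lost without day 4 or day 10. Snai1 (1.29), Snai2 (0.85), Twist1 (0.50) and Zeb1 (0.30), transcription factors of the mesenchymal state, were also called higher. Of 20 collagen chains, 6 rose (10.4% of all tested genes did), with 3 without day 4, 4 without day 10 or day 12 and 12 without day 2. Among them were Col3a1 (1.91, call lost without day 4, 10 or 12) and Col12a1 (1.85 ± 0.29, adjusted p = 0.0085). Periostin, encoded by Postn, had 1 of the 6 highest day 8 minus day 6 differences (3.47) but was not called, because day 2 read 10.70 and days 4 and 6 read 6.02 and 6.92, against 10.38, 10.99 and 11.45 on days 8, 10 and 12.

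**Figure D3:**
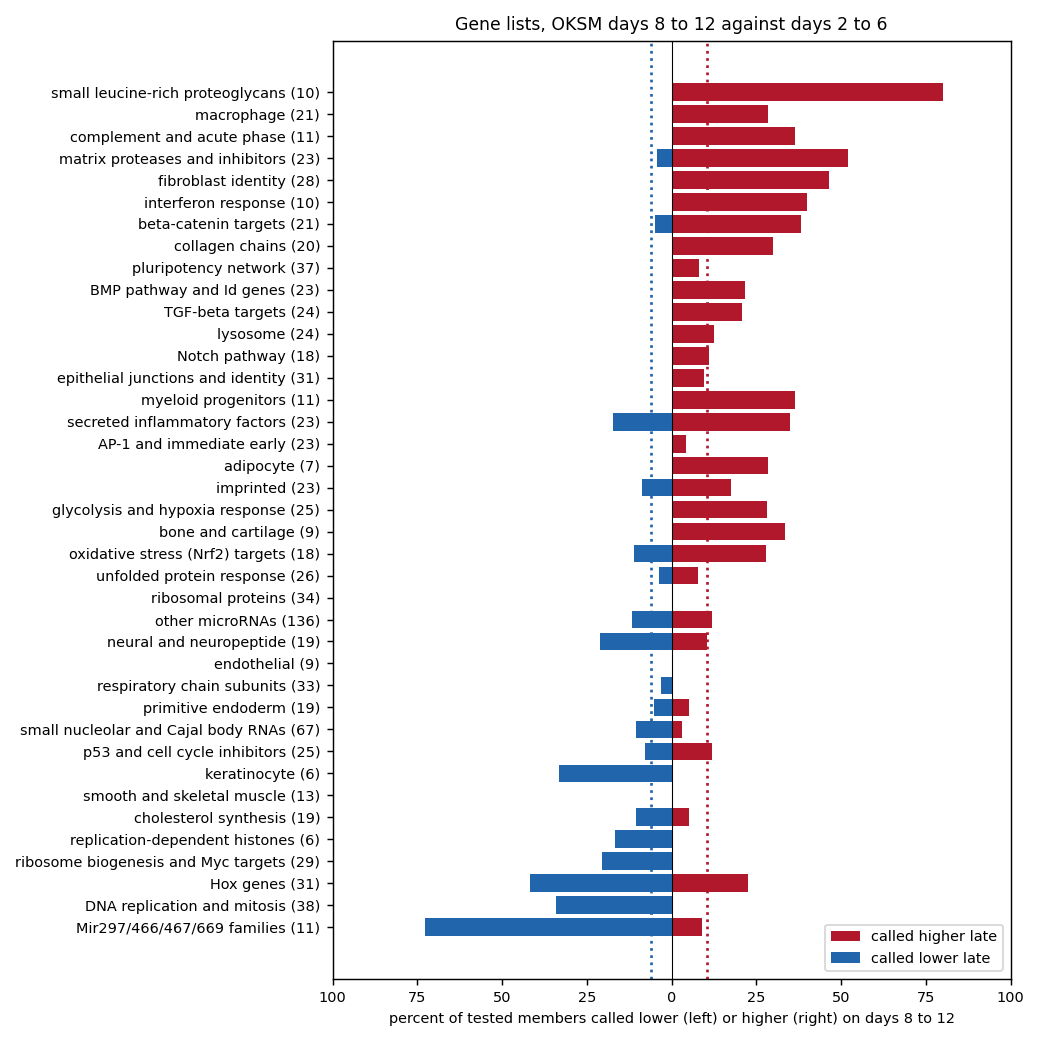
For each gene list with at least 5 tested members (number tested in brackets), the percent of tested members called lower (blue, left) or higher (red, right) on days 8 to 12 than on days 2 to 6 with OKSM alone, ordered by median difference. Dotted lines mark the shares over all 13865 tested genes, 6.13% lower and 10.4% higher; 8 of 10 small leucine-rich proteoglycans were higher and 8 of 11 members of the Mir297, Mir466, Mir467 and Mir669 families lower.

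Signalling and secreted genes were mixed in direction. Cxcl15, encoding a chemokine, read 8.64, 9.43 and 9.76 late, against 4.98, 4.88 and 4.87 early (4.37 ± 0.26, adjusted p = 0.00027). Of 23 secreted inflammatory factors 8 rose and 4 fell, against 10.4% and 6.13% of all tested genes. Without day 10 these were 4 and 0, without day 4 or day 12 they were 5 and 1, and without day 2 they were 9 and 3. Those that rose included Igfbp5 (1.97, call lost without day 4 or 10) and the chemokine genes Cxcl5 (1.81) and Cxcl12 (1.35). The 4 that fell were the chemokine genes Ccl2 (−0.82) and Ccl20 (−0.56), the NF-kappaB inhibitor Tnfaip3 (−0.76) and the cytokine gene Lif (−0.56). The fall of Ccl2 was lost without any of days 2, 4, 6, 10 or 12, and that of Tnfaip3 without day 10. Edn1, encoding the vasoconstrictor endothelin-1, read 8.26, 8.43 and 8.18 late, against 9.73, 10.94 and 10.56 early (−2.12 ± 0.28, adjusted p = 0.0046).

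Beta-catenin targets rose in 8 of 21 tested members and fell in 1, against 10.4% and 6.13% of all tested genes. Between 4 (without day 10) and 10 (without day 2) rose when single arrays were left out, 5 without day 12. Lgr5, a receptor for R-spondins and a stem cell marker of several epithelia, read 8.98, 9.50 and 10.49 late, against 6.44, 6.21 and 6.07 early (3.42 ± 0.34, adjusted p = 0.0018), and its second probe set averaged 6.61 late and 5.59 early. Dkk2 (2.88), Dkk3 (2.24) and Sfrp2 (2.23), which encode secreted proteins, rose too. Sp5, a transcription factor often induced by Wnt signalling, differed by −0.35 (adjusted p = 0.034, lost without day 4, 6, 8 or 10). Of 23 genes of the BMP pathway 5 rose, against 10.4% of all tested genes, with 2 without day 4 or day 12, 3 without day 8 or day 10 and 6 without day 2. The ligand Bmp4 was at 10.77, 10.75 and 10.61 late, against 9.90, 9.42 and 9.24 early (1.19 ± 0.17, adjusted p = 0.0056), and the antagonist Grem1 at 10.53, 10.07 and 9.95 late, against 8.46, 8.78 and 9.13 early (1.39 ± 0.21). Of 24 TGF-beta targets 5 rose, against 10.4% of all tested genes, with 2 without day 4 or day 10, 3 without day 8 and 6 without day 2. The members that rose most were Ltbp2 (0.87, lost without day 4 or 10) and Tgfb1 (0.67 ± 0.10).

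Other genes among the 12 highest had varied roles. Cyp2f2, a cytochrome P450 of lung club cells, read 9.77, 8.70 and 9.30 late, against 5.64, 5.40 and 5.53 early (3.73 ± 0.25). Its second probe set averaged 6.47 late and 5.96 early, a smaller difference. Slc7a11, the cystine importer that supplies glutathione synthesis, averaged 9.70 late and 6.46 early (3.25 ± 0.28), and 6.13 late and 4.27 early on its second probe set. Osr2, a transcription factor of limb and palate mesenchyme, averaged 9.86 late and 6.68 early, and Nxpe2 9.03 late and 5.84 early. Tac2, which encodes the neurokinin B precursor, differed in shape: it had read 5.99 and 7.19 on days 2 and 4 and was already at 10.19 on day 6, against 10.79, 11.59 and 11.68 on days 8, 10 and 12. Its call (3.57 ± 0.95, adjusted p = 0.044) was lost without any array except that of day 6.

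Hox genes record a cell's position along the body and limb axes and lie in clusters A to D numbered from the anterior end. Their calls differed by position and by cluster. Of 31 tested members 7 rose and 13 fell, against 10.4% and 6.13% of all tested genes. Among positions 1 to 8, 11 of 18 fell and none rose, with a median difference of −0.64; among positions 9 to 13, 7 of 13 rose and 2 fell, with a median of 0.86. Leaving out single arrays gave 7 to 8 higher and 12 to 14 lower, and quantile normalization gave 7 and 15. Hoxd13, which patterns the digits, read 10.84, 10.82 and 10.89 late, against 8.99, 8.80 and 8.25 early (2.17 ± 0.18, adjusted p = 0.00078). Hoxd11, which acts in the forearm and shank, read 9.91, 9.97 and 10.18 late, against 8.12, 8.45 and 8.10 early (1.80 ± 0.12, adjusted p = 0.00044).

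In the other direction, Hoxc6 read 7.86, 8.11 and 7.71 late, against 9.60, 9.43 and 9.61 early (−1.65 ± 0.12, adjusted p = 0.00050), and Hoxc8 9.24, 9.29 and 9.03 late, against 10.72, 10.69 and 10.83 early (−1.56 ± 0.09, adjusted p = 0.00027). The 2 members past position 8 that fell were Hoxb9 (−1.19) and Hoxc9 (−1.14). By cluster, 7 of 8 Hoxb genes and 4 of 7 Hoxc genes fell, 4 of 7 Hoxd genes rose, and 3 Hoxa genes rose and 2 fell of 9. No Hoxb or Hoxc gene rose at any position, and no Hoxd gene fell. Rep-MEFs without dox lay near the early arrays for Hoxc6 (9.57) and Hoxb3 (8.46), and the Thy1+ cells of day 3 near the late ones (7.89 and 7.44). For Hoxd13 the Thy1+ cells were at 10.62 and Rep-MEFs without dox at 9.31. With AGi the same positions had median differences of −0.81 and 0.27.

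**Figure D4:**
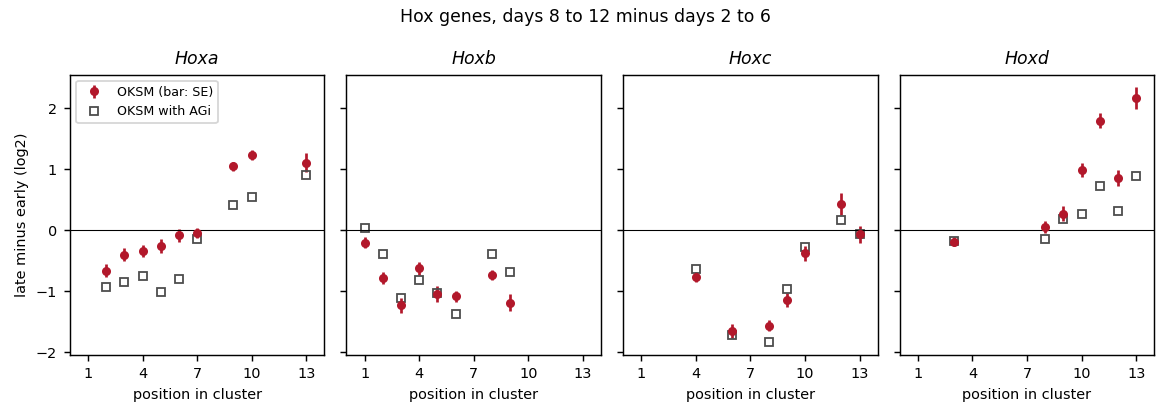
Late minus early difference (log2) of each tested Hox gene against its position in the cluster, for clusters A to D, with OKSM alone (red, bar ± limma SE, 3 late against 3 early arrays) and with OKSM and AGi (open grey squares). With OKSM alone no gene at positions 1 to 8 was called higher and 11 of 18 were called lower. At positions 9 to 13, 7 of 13 were called higher, all of them in clusters A and D.

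Small RNA genes held several of the lowest differences. The Mir297, Mir466, Mir467 and Mir669 families, with 11 members tested, fell in 8 and rose in 1 (Mir669j, 0.80). Of all tested genes 6.13% fell and 10.4% rose. The median of these families was −1.61, and this list was put together after such values had been seen. All 11 lie within the gene Sfmbt2 on chromosome 2 in the RefSeq table, where these families form a large repeated cluster, and near-identical copies can share probes. Sfmbt2 itself averaged 6.42 late and 6.16 early and was not called. Mir466b-2 read 7.02, 6.91 and 6.71 late, against 9.76, 10.04 and 10.05 early (−3.07 ± 0.12, adjusted p = 6.41e-05). It was also low on late days with AGi (6.47 to 7.66). All arrays outside days 8 to 12 read higher, with 10.8 in Rep-MEFs without dox, 10.5 in ESCs, 10.2 in GMPs and 9.7 in the Thy1+ cells of day 3. What set the late arrays of both arms apart was not tested. The 6 other probe sets of Mir466b-2 carried identical values, with means of 5.19 late and 7.96 early. Mir669h read 5.39, 5.47 and 4.96 late, against 8.45, 8.08 and 8.02 early (−2.91 ± 0.17), and Mir297a-4 averaged 6.76 late and 9.16 early. Of the 5 probe sets of Mir669g the highest averaged 5.79 late and 7.74 early, while the second averaged 4.62 and 4.59, so this call belongs to 1 probe set.

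Among 136 other microRNA genes tested, 16 rose and 16 fell, against 10.4% and 6.13% of all tested genes. The mature strands of the 2 highest and the lowest are shown, since the seed (bases 2 to 8, in capitals) sets which transcripts a microRNA can pair with; they are RefSeq's for GRCm38.p6. The array values are those of probe sets annotated to the microRNA gene and do not tell the strands apart.
mmu-miR-218-5p: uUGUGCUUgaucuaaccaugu
mmu-miR-218-1-3p: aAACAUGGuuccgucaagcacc
mmu-miR-199a-5p: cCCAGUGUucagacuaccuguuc
mmu-miR-199a-3p: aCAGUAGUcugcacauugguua
mmu-miR-196a-5p: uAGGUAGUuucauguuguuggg
mmu-miR-196a-1-3p: cAACGACAucaaaccaccugau
No seed was shared among the 6 strands. Mir218-1, which lies within a Slit gene in mammals, read 9.58, 9.02 and 9.25 late, against 7.44, 7.89 and 8.08 early (1.48 ± 0.20, adjusted p = 0.0050). Mir199a-1, a microRNA gene of mesenchymal cells, read 6.62, 6.78 and 6.35 late, against 5.21, 5.25 and 5.05 early (1.42 ± 0.12, adjusted p = 0.00091). Mir196a-1, whose product is known to target Hox transcripts, read 6.16, 6.39 and 5.91 late, against 7.36, 7.70 and 7.66 early (−1.42 ± 0.15, adjusted p = 0.0020). In the RefSeq table Mir196a-1 lies between Hoxb13 and Hoxb9, and it fell as Hoxb9 did.

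The gene symbol with the lowest difference was Kcnma1, which encodes the large-conductance calcium-activated potassium channel, but its 2 probe sets disagreed. One read 6.50, 6.25 and 6.47 late, against 11.71, 11.91 and 12.03 early (−5.48 ± 0.11, adjusted p = 1.19e-06). The other averaged 6.33 late and 5.98 early and lay between 5.60 and 6.46 on all 18 arrays. The falling probe set also read 12.52 in ESCs, 11.53 in Rep-MEFs without dox, 7.20 in GMPs and 6.48 in the Thy1+ cells of day 3. The value therefore describes 1 probe set, and a fall of the gene was not shown by both. Olfr310, an olfactory receptor gene, averaged 8.23 late and 10.80 early (−2.57 ± 0.12), and Pramel20, of a germline gene family, 6.09 late and 7.96 early (−1.87 ± 0.10), each on 1 probe set. Olfr310 was also low on late days with AGi (7.59 to 8.14). It read 11.25 in Rep-MEFs without dox, 10.72 in ESCs, 10.89 in GMPs and 10.61 in the Thy1+ cells of day 3. Of the 24 genes with the 12 highest and 12 lowest differences, 18 had 1 probe set and 6 several.

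Among the other genes that fell, C1qtnf3, encoding a secreted adipokine and cartilage protein, read 8.92, 8.14 and 7.74 late, against 10.13, 10.78 and 10.74 early (−2.28 ± 0.31, adjusted p = 0.0052). Nes, encoding the intermediate filament nestin, read 8.45, 8.10 and 7.72 late, against 9.83, 10.50 and 9.75 early (−1.94 ± 0.24, adjusted p = 0.0041). Ncam1, a neural cell adhesion molecule, averaged 10.53 late and 11.66 early (−1.13 ± 0.14). Both C1qtnf3 and Nes went on falling across days 8, 10 and 12.

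Cell division genes were lower. Of 38 tested genes of DNA replication and mitosis 13 fell and none rose, against 6.13% and 10.4% of all tested genes. All 3 late arrays lay below all 3 early ones for 29 of the 38, against 19.3% of all tested genes. When single arrays were left out, 10 fell without day 2 and 14 without day 6. Only 1 fell without day 4 or day 12, and 2 without day 8 or day 10. The list's mean was 9.96 to 10.13 on late days and 10.28 to 10.64 on early days. It was already falling before day 8, from 10.64 on day 2 to 10.28 on day 6, and read 10.07 on day 8. Cenpe, the kinetochore motor, read 8.97, 9.20 and 8.71 late, against 10.15, 9.76 and 9.79 early (−0.94 ± 0.16, adjusted p = 0.0097). Mcm5, a subunit of the replicative helicase, differed by −0.63, a call lost without day 4, 8, 10 or 12. Of 29 genes of ribosome biogenesis 6 fell and none rose, against 6.13% and 10.4% of all tested genes. Mybbp1a (−0.40) and Cad (−0.35) fell most, and 0 to 4 of the 29 fell when single arrays were left out. None of 34 ribosomal protein genes was called, with a median of −0.00.

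Stress and metabolic lists moved in part. Of 25 genes of glycolysis and the hypoxia response 7 rose and none fell, against 10.4% and 6.13% of all tested genes. When single arrays were left out, 5 to 9 rose. Adm, encoding adrenomedullin, read 8.28, 8.94 and 8.56 late, against 6.56, 7.40 and 6.71 early (1.70 ± 0.25), and Ndrg1 9.73, 10.25 and 10.35 late, against 8.63, 8.30 and 8.30 early (1.70 ± 0.18). The others called were Aldoc, Bnip3, Vegfa, P4ha1 and Car9, between 0.42 and 1.16. Dnajb9, a chaperone of the endoplasmic reticulum, rose by 0.90 ± 0.08 (adjusted p = 0.00083). It was 1 of 2 of 26 unfolded protein response genes that rose, against 10.4% of all tested genes, and Hyou1, another chaperone of that compartment, fell (−0.40, adjusted p = 0.032, lost without day 4, 8, 10 or 12). Of 25 p53 targets and cell cycle inhibitors 3 rose and 2 fell, against 10.4% and 6.13% of all tested genes. Sesn1 (0.76), Cdkn1b (0.48) and Cdkn1c (0.36) rose, and Mdm2, the p53 ubiquitin ligase, and Plk2 fell (−0.55 and −0.44). With day 4, 6, 8, 10 or 12 left out none rose, and with day 2 left out 3 did; 1 fell without day 4, 6, 10 or 12, against 5 without day 2. Cdkn1a, the p53-induced cell cycle inhibitor, read 12.77, 12.84 and 12.75 late and 12.73, 12.92 and 13.01 early and was not called. Cdkn2a, the Ink4a/Arf gene, was not called either (0.27 ± 0.11, adjusted p = 0.13).

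Of the pluripotency network, 3 of 37 tested genes rose (against 10.4% of all tested genes) and none fell: Fbxo15 (1.35), Sall1 (0.85) and Klf2 (0.51). None rose without day 4 or day 10, 1 without day 12 and 4 without day 8. Nanog, a core pluripotency factor, did not follow the step. It read 7.56, 8.60 and 9.95 on days 8, 10 and 12, against 6.24, 7.08 and 7.64 on days 2, 4 and 6, a difference of 1.72 ± 0.60 that was not called (adjusted p = 0.093), with −0.08 from day 6 to day 8 and 12.26 in ESCs. Sox2 read 6.18, 6.34 and 8.15 late, against 5.41, 5.86 and 5.33 early (adjusted p = 0.10). Pou5f1, the gene of Oct4, lay between 7.10 and 7.35 on all 6 arrays. Klf4 and Myc differed by −0.28 and 0.02 and were not called. Of 31 epithelial genes 3 rose, against 10.4% of all tested genes, with 4 without day 6, 2 without day 2 and 1 without any other single day. They included Krt8 (0.75, lost without day 2, 4, 8, 10 or 12) and Cldn3 (0.70, lost without day 10), and Cdh1, the epithelial cadherin, differed by 0.79 ± 0.39 (adjusted p = 0.20).

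Markers of other cell types were examined for the whole lists. Macrophage genes rose in 6 of 21 tested members and fell in none, against 10.4% and 6.13% of all tested genes. Of the 21, 18 were higher without day 2 and 0 without day 4 or day 10. The mean over the 30 measured macrophage genes was 7.31 to 7.57 on late days, against 7.46 on day 2, 6.35 on day 4 and 6.45 on day 6, so that the periods overlapped through day 2; it was 7.20 in Rep-MEFs without dox and 8.81 in GMPs. Adgre1, the F4/80 antigen of macrophages, read 7.63, 7.81 and 8.23 late, against 7.14, 5.14 and 5.37 early (2.01 ± 0.49, adjusted p = 0.034), a call lost without any array except that of day 2. Csf1r read 7.62, 7.67 and 7.57 late, against 7.65, 6.35 and 6.56 early. Ptprc, the pan-leukocyte CD45, lay at 5.77 to 6.13 late and 5.30 to 6.12 early, against 10.62 in GMPs. The part of these markers in the secreted and matrix gene results was not tested. None of 9 endothelial and none of 13 muscle genes was called, and 2 of 6 keratinocyte genes fell, against 6.13% of all tested genes. Of 7 adipocyte genes 2 rose, Fabp4 (2.49 ± 0.39) and Cebpa (1.19, lost without day 4 or 10), and none fell. Plin1 and Cidec differed by −0.10 and −0.25, and Adipoq was not tested. Of 9 bone and cartilage genes 3 rose and none fell, with Col10a1 (3.05 ± 0.23) and Comp (1.33, lost without day 4, 6 or 10) highest. Of 19 primitive endoderm genes 1 rose (Pdgfra) and 1 fell (Lama1). Of all tested genes 10.4% rose and 6.13% fell. Of 11 myeloid progenitor genes 4 rose, against 10.4% of all tested genes. That count was 1 without day 4 or day 10 and 5 without day 2. Myb was at 9.89, 10.36 and 10.29 late, against 7.54, 7.25 and 7.90 early (2.61 ± 0.19). Its second probe set averaged 7.53 late and 6.78 early. Myb was not confined to myeloid cells, at 12.61 in GMPs, 9.73 in ESCs and 9.32 to 10.93 in the late cultures with AGi.

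The cultures with AGi were sampled on the same days, so the arms share their days and any handling common to a day. In the cultures with AGi, 102 genes were called higher late (0.736%) and 43 lower (0.31%). From day 6 to day 8 the differences of the arms correlated at 0.630 across genes, as a description. This was close to the 0.588 from day 2 to day 4. From day 4 to day 6, day 8 to day 10 and day 10 to day 12 the correlations were 0.291, 0.119 and 0.152. Of the 1441 genes called higher with OKSM alone, 1206 (83.7%) had the same sign with AGi, as had 744 (87.5%) of the 850 called lower and 68.1% of all tested genes. The median of the higher genes was 0.64 without and 0.32 with AGi, and that of the lower genes −0.48 without and −0.31 with AGi. All 57 genes that fell by at least 1 log2 had the same sign with AGi, and for none of them was a difference between the arms called. Mmp3 (3.83 without and 3.58 with AGi), Lum (3.59 and 3.39), Aspn (3.99 and 4.26), Edn1 (−2.12 and −2.24) and Hoxc6 (−1.65 and −1.72) are given side by side, and no difference between the arms was called for them.

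In a fit of both arms that kept each day as a block, 250 genes (1.8%) changed more positively without AGi than with it, and 89 (0.642%) more negatively. Cxcl15 averaged 9.27 late and 4.91 early without AGi, and 5.16 late and 4.53 early with it, a difference between the arms of 3.74 ± 0.27 (adjusted p = 0.0058). Lgr5 was at 8.98 to 10.49 late without AGi and 6.01 to 6.60 with it, and the arms differed by 3.10 ± 0.33 (adjusted p = 0.017). Penk rose in both arms, but by 1.53 ± 0.26 more without AGi (adjusted p = 0.036). Of 21 tested macrophage genes 8 changed more positively without AGi, and the list's median difference between the arms was 0.77. Among the posterior Hox genes, Hoxd13 (1.28 ± 0.13) and Hoxd11 (1.08 ± 0.13) rose more without AGi. Pluripotency genes went the other way: 11 of 37 had a lower late minus early difference without AGi, with Sox2 at −3.35 ± 0.42, and so had Tdgf1, encoding the Nodal co-receptor Cripto, at −3.84 ± 0.66. These calls depended on single days. Without day 10 none was higher and 1, Dppa2, was lower. Without day 4 there were 16 higher and 2 lower, and without day 2 there were 21 and 9. Without day 6 there were 106 and 69, without day 8 there were 275 and 176, and without day 12 there were 130 and 44.

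**Figure D5:**
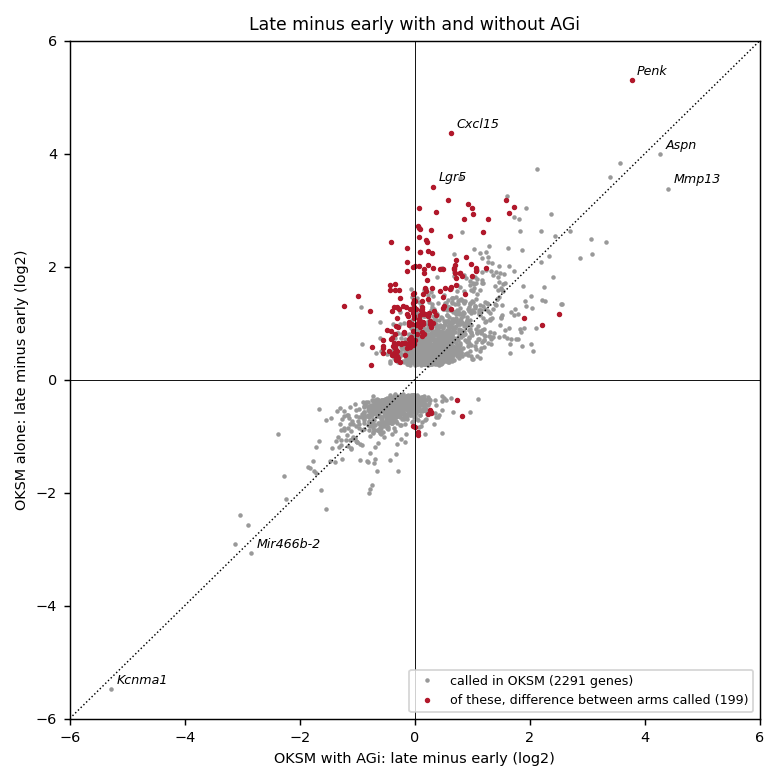
Late minus early difference (log2) with OKSM alone (vertical) against that with OKSM and AGi (horizontal) for the 2291 genes called with OKSM alone; red points are the 199 of them whose difference between the arms was called, and the dotted line marks equal differences. Aspn, Mir466b-2 and the falling probe set of Kcnma1 lie near the line, while Cxcl15 and Lgr5 lie far above it.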

How the data were processed

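Total RNA was isolated with a Qiagen RNeasy kit and measured on mouse arrays, per the labels' protocols. The table the authors deposited holds log2 values, 1 for each probe set, and the tools listed are Expression Console of Affymetrix and RMA, per the submitters' processing notes. The sources used here state no versions, settings, scan records or build. RMA scales arrays to a common distribution, so a shift of most genes one way is largely removed.

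The table held 41345 probe sets, of which 23521 had 1 gene symbol, 1814 several and 15820 none, with 190 controls. Symbols came from the platform annotation, updated through the RefSeq table of GRCm38.p6. Where several probe sets named 1 gene (22180 genes in all), the one with the highest mean across the 18 arrays stood for it. A gene was tested (13865 were) if 3 or more of the 12 time-course arrays had it at or above their median.

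Linear models were fitted in limma 3.58.1 (R 4.3.3), moderated with eBayes and adjusted by Benjamini-Hochberg over all tested genes at 0.05. They compared late with early days (4 residual degrees of freedom), the same with day as a linear term (3) and the arms with the day as a block (4). An exact two-sided permutation test of 3 against 3 arrays cannot go below 0.10. Neighbouring days were compared by size only. The members, gene lists and tests were chosen with earlier results of these data known. Named genes were the 12 highest and 12 lowest called differences without overlap, the 6 highest and lowest day 8 minus day 6 and arm differences, up to 2 called members per list and direction, and 10 key genes; members named with a difference alone, the cell type markers, Mmp10 and Sfmbt2 were added. Fits were tested on simulated arrays. Alternatives changed the filter, normalization, probe set rule, variance model, days and thresholds. Plots used Python 3.11.15 and matplotlib 3.10.9.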

Additional observations from a re-analysis of the deposited data

Results flagged for a closer look

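The results here are those for which the change from early to late days differed between cultures without and with AGi by limma's test of that difference, at an adjusted p under 0.05 with the day as a block. In each, the value is the late minus early difference without AGi minus that with AGi (log2). Without AGi the change was higher for 250 genes and lower for 89.

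Among genes called in cultures with OKSM alone, Penk differed by 1.53, Cxcl15 by 3.74, Lgr5 by 3.10, Osr2 by 1.59 and Nxpe2 by 2.60. The matrix genes Sparcl1, Ecm2 and Col10a1 differed by 2.97, 2.62 and 1.32, and the growth factor binding protein gene Igfbp5 by 1.65. Wfdc17 differed by 2.85 and Mctp1 by 2.66. The macrophage gene Adgre1 differed by 2.00: it read 7.63 to 8.23 late without AGi and 5.60 to 6.27 late with it. Hoxd13 and Hoxd11 differed by 1.28 and 1.08, Mir218-1 by 2.47 and Mir199a-1 by 1.43.

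The 6 lowest were not called in cultures with OKSM alone. With AGi 4 of them were called higher late, and Zfp42 and Mir290a were not (adjusted p = 0.069 and 0.10). Tdgf1 differed by −3.84, Cyp2b23 by −3.63, Sox2 by −3.35, Dppa2 by −2.96, Zfp42 by −2.83 and Mir290a, a microRNA gene of the cluster that is active in ESCs, by −2.79. Of these 22 named genes, only Dppa2 was still called when day 10 was left out. Leaving out day 4 kept 2 calls, day 2 kept 3, day 12 kept 17, day 6 kept 18 and day 8 kept 21.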

How the results depend on the processing

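The late minus early counts kept within 1.5 times the main ones with no filter on low values, either rescaling, the upper 40% of genes, the mean of all probe sets, another variance model, or days 8 and 10 against days 4 and 6. They were 473 higher and 146 lower at an adjusted p of 0.01, 506 lower with 1 spread over 12 arrays, 170 and 25 against a difference of 0.5 log2, and 540 to 1803 higher and 202 to 1031 lower without single arrays. The counts beyond a line were 34 higher among the upper 40% of genes by mean, 1 and 1 at 0.01, and 1 to 297 higher and 1 to 47 lower without single arrays. Those between the arms were 56 and 10 in the upper 40%, 8 and 1 at 0.01, 48 and 9 without the day block, and 0 to 275 higher and 1 to 176 lower without single days. Without the low-value filter, 12 genes were higher and 23 lower from day 8 to day 10, and 10 lower from day 10 to day 12. At 2 log2 the neighbouring-day counts, in order, were 9, 1, 83, 0 and 2 higher and 12, 0, 13, 2 and 0 lower. Dppa2, not called (0.15), was −0.56 (adjusted p = 0.0151) for days 8 and 10 against days 4 and 6. Of 105 called named genes, 40 kept the call under all 16 alternatives, and no call turned. No paired analysis was possible because the replicate numbers are the order of the days and pair no early with a late array. Counts that fell without an array also had fewer samples; other causes were not tested. Signal over background limits dim probe sets.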
